A study of Mus musculus with 15 samples.

Results

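Hipk1, Hipk2 and Hipk3 encode the homeodomain-interacting protein kinases, and their 3 rows of the 54532 genes in the deposited count table are described here in the mouse brain after intracerebral haemorrhage (ICH). The genes were chosen by family. Hipk2 was singled out because its counts were higher with NYKD than after ICH, so its levels are given as a description without a test, and no p-value is given for any of the 3 genes in that comparison. NYKD is the Nao Yi Kang decoction; the treated mice are also listed as NYKD-M, and no source used here explains the M. All 3 genes passed the filter on low counts, as did 18052 genes in all.

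The basal ganglia of the injured side were taken from 15 mice on day 3, after perfusion with saline, and 1 poly-A RNA library was sequenced per mouse. The sham group (5 mice) had sham surgery and distilled water by gavage, the ICH group (5 mice) had haemorrhage and distilled water, and the NYKD group (5 mice) had haemorrhage and NYKD at 5.79 g/kg by gavage once daily for 3 days. Every mouse is labelled wild type (WT). The labels give no strain, sex or age and do not say how the haemorrhage was made. NYKD was given only after haemorrhage, so its effect on uninjured tissue was not measured. Replicate numbers in the labels were not taken to pair the mice across groups. That choice rests on correlations between libraries, which cannot exclude a pairing by design.

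The kinases are nuclear serine/threonine kinases of the DYRK group. They bind and phosphorylate transcription factors and corepressors, and were named for their binding to homeodomain proteins. In human cells HIPK2 phosphorylates p53 after DNA damage and promotes cell death, and it is held at a low level by ubiquitin ligases. In mice Hipk1 and Hipk2 overlap in function during development, and loss of Hipk2 reduces midbrain dopamine neurons. HIPK3 has been linked in human cells to FAS and FADD, parts of the cell-death receptor pathway.

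In the mm10 build with GENCODE M21 all 3 genes lie on the minus strand. Hipk1 (ENSMUSG00000008730) spans chr3:103739815-103791563, Hipk2 (ENSMUSG00000061436) spans chr6:38694390-38876165, and Hipk3 (ENSMUSG00000027177) spans chr2:104426481-104494446. Their longest transcripts are 7939, 7684 and 7454 bases, against a median of 3134 bases over the tested genes. The annotation of RefSeq carries Hipk2 6878 bases further at the 3′ end than GENCODE M21 does, and whether reads there were counted is not given in the sources used here. Exons of Hipk1 share 729 bases (6.68% of its exon length) with the antisense gene Gm15886, which held 0 to 8 counts per library. Without known strandedness, reads from that stretch cannot be assigned to either strand.

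The kinases share little sequence at the length of a read, which bears on whether counts of 1 could spill into another. The longest run shared by the longest transcripts of Hipk1 and Hipk2 was 29 bases, at positions 1164 to 1192 of Hipk1 and 1366 to 1394 of Hipk2.
Hipk1 and Hipk2 shared run: taccgagtgaaggtcattgactttggttc
Hipk2 and Hipk3 shared at most 21 bases, Hipk1 and Hipk3 at most 20, and no run of 20 or more was shared with Hipk4, the remaining member of the family.

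The 300 bases around a RefSeq start of each gene (GRCm38.p6, minus strand) are shown, and these windows differ in base composition. Capitals mark matches on either strand to the motifs CCGCCC (the Sp1 box, found in 35.7% of all 32851 RefSeq promoters of the same length) and CCAAT (the CCAAT box, 37.4% of them).
Hipk1, chr3:103791512-103791811: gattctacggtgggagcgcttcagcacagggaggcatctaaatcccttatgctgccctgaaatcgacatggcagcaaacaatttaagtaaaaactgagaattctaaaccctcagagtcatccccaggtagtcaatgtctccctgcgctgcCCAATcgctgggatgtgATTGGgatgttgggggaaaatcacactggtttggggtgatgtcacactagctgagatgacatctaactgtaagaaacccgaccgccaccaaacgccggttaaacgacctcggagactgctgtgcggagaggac
Hipk2, chr6:38876141-38876440: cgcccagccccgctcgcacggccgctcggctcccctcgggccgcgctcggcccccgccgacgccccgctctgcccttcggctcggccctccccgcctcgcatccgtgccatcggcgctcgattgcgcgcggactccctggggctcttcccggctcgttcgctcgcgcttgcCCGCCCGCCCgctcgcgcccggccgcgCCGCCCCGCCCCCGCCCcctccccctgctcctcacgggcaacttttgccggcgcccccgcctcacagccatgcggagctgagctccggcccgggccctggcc
Hipk3, chr2:104494440-104494739: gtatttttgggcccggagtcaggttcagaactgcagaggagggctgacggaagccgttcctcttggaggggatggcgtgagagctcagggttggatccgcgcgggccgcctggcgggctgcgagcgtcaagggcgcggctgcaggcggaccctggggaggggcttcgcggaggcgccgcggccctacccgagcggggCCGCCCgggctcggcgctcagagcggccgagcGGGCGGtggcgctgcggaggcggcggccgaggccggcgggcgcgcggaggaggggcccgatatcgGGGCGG
GC content was 51% for Hipk1, 80.7% for Hipk2 and 76% for Hipk3. Hipk2 held 5 matches to CCGCCC and 48 CpG sites, a GC content above that of 99.2% of all promoters. Hipk3 held 3 matches to CCGCCC and 42 CpG sites, and Hipk1 held 2 matches to CCAAT and 12 CpG sites. The motifs TGACGTCA (1.79% of promoters), TGACNNNGC (12.4%), TATAAA (13.6%) and TGANTCA (7.81%) were not found in these windows of the 3 genes. A second RefSeq start of Hipk1 and of Hipk2 is not shown, and its composition differed. The second Hipk1 window (chr3:103791226-103791525) had 72% GC and 31 CpG sites. The second Hipk2 window (chr6:38837262-38837561) had 51.3% GC and 1 CpG site. Neither held a match to CCGCCC or CCAAT. The order of the genes by GC content thus depended on the start taken.

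Library totals ran from 13539203 counts (ICH replicate 4) to 19909140 counts (sham replicate 5). Correlations between libraries across genes, which are not independent replicates, ran from 0.870 to 0.980. The tissue carried neuronal and glial markers in every library: Snap25, Mbp and Slc1a2 were at 0 in none. Markers of striatal projection neurons, the main neurons of this tissue, summed to 761 to 4750 CPM (counts scaled to a fixed library total) in sham, 599 to 3710 after ICH and 129 to 1640 with NYKD. Sham replicate 1 (761 CPM) stood apart from the other sham mice, which lay at 3750 or above. In bulk tissue, fewer cells of a type, less RNA per cell and a different extent of tissue taken cannot be told apart. Markers of thalamic or cortical neurons summed to 152 to 690 CPM in sham, 122 to 401 after ICH and 182 to 752 with NYKD. Choroid plexus markers summed to 66.7 to 2800, 9.77 to 5790 and 124 to 4390 CPM in the same order. Whether the dissection differed between mice was not tested. ICH replicate 4 stood apart too, with the lowest oligodendrocyte markers (2810 CPM) and neutrophil markers at 497 CPM against 45.2 to 55.7 in the other ICH mice. Sham replicate 5 had the lowest scaling factor (0.8655). Where the sign or call of a Hipk1, Hipk2 or Hipk3 result changed without 1 of these libraries, both values are given.

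Hipk1 was the most counted of the 3 kinases, and its groups overlapped. TMM-scaled CPM in sham replicates 1 to 5 was 172.8, 171.9, 173.0, 175.8 and 232.9. In ICH it was 210.0, 165.2, 198.4, 190.8 and 221.0, and with NYKD 201.9, 245.3, 246.1, 225.4 and 215.5. Group means were 185 ± 26.6, 197 ± 21.2 and 227 ± 19.1 (SD, n = 5 each). Sham replicate 5 lay among the NYKD mice, and the other sham mice lay below all of them. Against sham, the log2 fold change of Hipk1 was 0.09 ± 0.13 (SE) after ICH (95% interval -0.18 to 0.36; adjusted p = 0.671, edgeR) and 0.29 ± 0.13 with NYKD (0.03 to 0.56; adjusted p = 0.104). Neither passed the threshold of 0.05, which 17.0% of tested genes passed in the ICH comparison and 23.4% passed with NYKD. Without sham replicate 5 the NYKD value was 0.35 with an adjusted p of 0.0329, and with scaling by library totals it was 0.32 with an adjusted p of 0.0417, so the side of the threshold depended on that library and on the scaling. With an offset for GC content and transcript length the value was 0.13 (adjusted p = 0.410).

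Hipk2 was the member whose levels separated the NYKD mice. Its CPM was 64.4, 76.8, 72.5, 146.9 and 139.8 in sham replicates 1 to 5. After ICH it was 125.6, 48.4, 53.4, 26.5 and 69.2. With NYKD it was 196.3, 208.7, 226.8, 161.7 and 191.0. All 5 NYKD mice lay above all 5 ICH and all 5 sham mice, whereas ICH and sham overlapped. Mean CPM was 100 ± 39.8 in sham, 64.6 ± 37.4 after ICH and 197 ± 24.0 with NYKD (SD, n = 5 each). The coefficient of variation was 39.8%, 57.8% and 12.2%. In sham, 3 mice lay between 64.4 and 76.8 CPM and 2 at 139.8 and 146.9, and ICH replicate 1 stood above the other ICH mice.

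**Figure D1:**
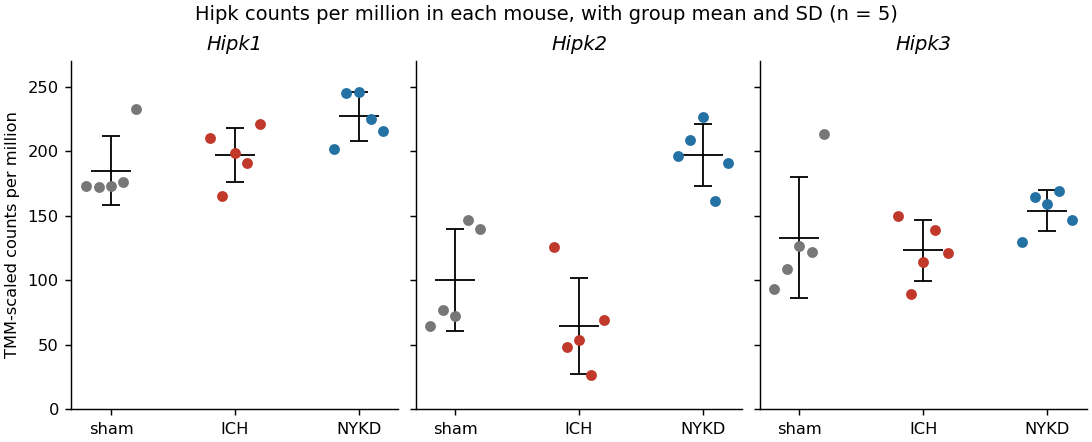
TMM-scaled CPM of Hipk1, Hipk2 and Hipk3 in each mouse (points) by group, with the mean and SD of 5 mice (black). For Hipk2 the 5 NYKD mice lie at 161.7 or above and every other mouse at 146.9 or below, while the groups of Hipk1 and Hipk3 overlap.

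For Hipk2, the log2 fold change was -0.63 ± 0.33 (SE) after ICH against sham, 0.98 ± 0.33 with NYKD against sham and 1.61 ± 0.34 with NYKD against ICH, the last a 3.05-fold difference. An NYKD mouse had the higher Hipk2 value in 25 of 25 pairs with ICH mice and in 25 of 25 pairs with sham mice. Groups lay apart in this direction for 2.55% of tested genes in NYKD against ICH and 13.9% in NYKD against sham. The rule chose Hipk2 on the first of these, so its place there is given and not read further. Without ICH replicate 4 the NYKD against ICH value was 1.39, and without ICH replicate 1 it was 1.995. Without sham replicate 1, NYKD against sham was 0.85. Omission of single libraries moved ICH against sham between -1.02 (without ICH replicate 1) and -0.45 (without sham replicate 4). With astrocyte markers as a covariate NYKD against ICH was 0.89 and NYKD against sham was -0.32, the reverse of its sign without them.

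Hipk3 had a mean between those of Hipk1 and Hipk2 in sham and ICH and the lowest mean of the 3 with NYKD, and it showed no called change. Its CPM was 93.3, 108.7, 126.5, 122.1 and 213.6 in sham replicates 1 to 5, and 149.9, 89.4, 114.0, 139.0 and 121.3 after ICH. With NYKD it was 129.6, 164.5, 159.0, 169.4 and 146.6. All 5 NYKD mice lay within the sham range, whose top value was again sham replicate 5. Means were 133 ± 47.0, 123 ± 23.4 and 154 ± 16.0 (SD, n = 5 each). The log2 fold change was -0.12 ± 0.20 (SE) after ICH (95% interval -0.53 to 0.30; adjusted p = 0.732, edgeR) and 0.21 ± 0.20 with NYKD against sham (-0.21 to 0.63; adjusted p = 0.464). The ICH direction flipped to 0.08 without sham replicate 5 and was 0.00 with library totals. The NYKD value was 0.42 without sham replicate 5 (adjusted p = 0.0584) and 0.07 with the GC and length offset (adjusted p = 0.778).

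With NYKD against ICH, the contrast that chose Hipk2, the other kinases lay higher by smaller amounts. Hipk1 was higher by 0.20 ± 0.13 (log2, SE) and Hipk3 by 0.33 ± 0.20, each in 22 of 25 pairs of mice. In this contrast 3.46% of tested genes were called. With an offset for GC content and transcript length the Hipk1 value was -0.04, so its sign depended on that correction, and Hipk3 was 0.12.

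**Figure D2:**
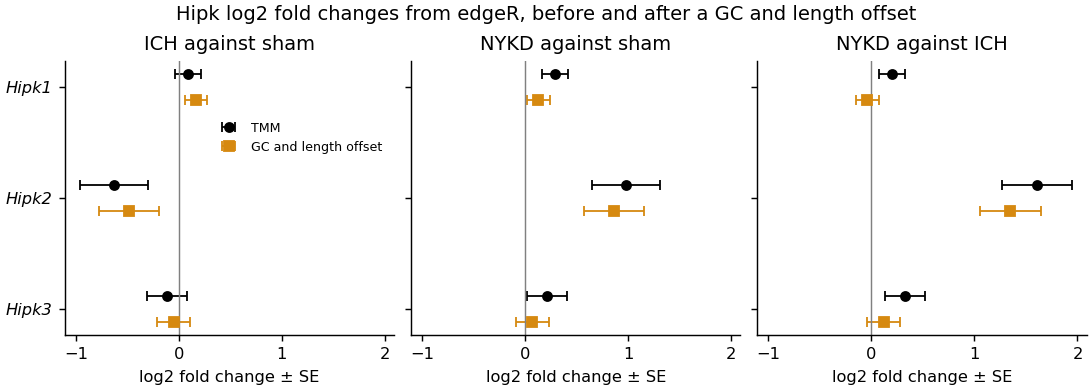
Log2 fold changes with SE for the 3 kinases in each comparison, from the edgeR model with TMM scaling (black circles) and with an added offset for GC content and transcript length (orange squares). Hipk2 lies between 1.35 and 1.61 in NYKD against ICH under both, while Hipk1 lies at 0.20 and -0.04.

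Compared per kilobase of longest transcript, Hipk2 moved from the lowest level of the 3 to a place beside Hipk1. In sham the CPM per kilobase was 23.3 ± 3.36 for Hipk1, 17.8 ± 6.30 for Hipk3 and 13.0 ± 5.18 for Hipk2 (SD, n = 5 each). After ICH it was 24.8 ± 2.67, 16.5 ± 3.14 and 8.41 ± 4.86 in the same order. With NYKD it was 28.6 ± 2.41 for Hipk1, 25.6 ± 3.12 for Hipk2 and 20.6 ± 2.14 for Hipk3. Neighbours in this order differed by less than the larger of their SDs in sham (both pairs) and for Hipk1 and Hipk2 with NYKD, and by more than it elsewhere. Within each library, Hipk2 took 19.5% to 33.0% of the summed CPM of the 3 kinases in sham, 7.44% to 25.9% after ICH and 29.1% to 37.2% with NYKD. The upper sham and lower NYKD shares overlapped.

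The ratio of Hipk3 to Hipk1 within a library, which needs no scaling between libraries, was -0.53 ± 0.28 in sham, -0.70 ± 0.21 after ICH and -0.56 ± 0.09 with NYKD (log2, SD, n = 5 each). It differed from sham by -0.17 after ICH (two-sided exact permutation test, p = 0.325, adjusted over 2 comparisons 0.651) and by -0.03 with NYKD (exact p = 0.817, adjusted 0.817). At 5 against 5 the smallest p this test can give is 0.00794.

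Mice within a group varied together in Hipk1 and Hipk3. Deviations of log2 CPM from the group mean correlated over the 15 libraries with Pearson r = 0.829 and Spearman rho = 0.779 (within-group permutation test, adjusted over 3 pairs p = 0.0141 and 0.00948). Without the sham and ICH replicate 5 libraries, the 2 farthest from the median deviation of Hipk1, r was 0.754. Without sham replicate 5 and ICH replicate 2, the lowest Hipk1 deviation, r was 0.590. Within groups r was 0.934 in sham, 0.703 after ICH and 0.810 with NYKD, each over 5 mice. It fell to 0.687 with library totals and 0.513 with the GC and length offset, and to 0.654 without sham replicate 5. The permutation tests here are against no correlation, and all genes share library and depth. Their p-values therefore do not set the pair apart from other pairs of genes. By these deviations the 5 genes most like Hipk1 had r of 0.844 or above, and the 5 most like Hipk3 had 0.922 or above. For Hipk1 and Hipk2, r was 0.505 and rho 0.568 (permutation test, adjusted p = 0.152 and 0.0548), with r = -0.239 under the GC and length offset. For Hipk2 and Hipk3, r was 0.414 and rho 0.386 (adjusted p = 0.210 and 0.220), with r = -0.048 under that offset.

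**Figure D3:**
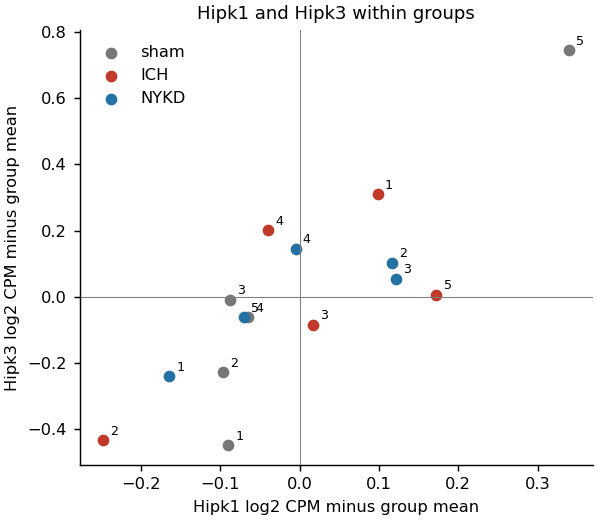
Hipk1 (horizontal) and Hipk3 (vertical) log2 CPM of each library minus the mean of its group, with replicate numbers. Sham replicate 5 is at the upper right, and Pearson r over the 15 libraries is 0.829.

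Beside Hipk2, 3 measures of the libraries moved with its level or differed between the groups. Across the sham and ICH libraries, but not the NYKD ones, Hipk2 largely moved with the summed astrocyte markers. Their summed CPM in replicates 1 to 5 was 3090, 3420, 3480, 4810 and 5910 in sham, 5030, 3150, 2930, 2140 and 3860 after ICH, and 4890, 5640, 5210, 5110 and 3760 with NYKD. Sham replicates 4 and 5 and ICH replicate 1, the libraries outside NYKD with the highest Hipk2 CPM, had the highest astrocyte sums of their groups, and ICH replicate 4, the lowest in Hipk2, had the lowest sum of all. Among NYKD mice, replicate 5 had the lowest sum (3760) with Hipk2 at 191.0 CPM. Replicate 4 had the lowest Hipk2 (161.7) with a sum of 5110. Slc1a2 was the largest part of the sum (mean CPM 3000 in sham, 1800 after ICH and 2890 with NYKD). Aqp4, Aldh1l1, Slc1a3 and Gja1 had higher means after ICH than in sham, whereas the Hipk2 mean was lower. With the mean log2 CPM of the 5 astrocyte markers as a covariate, the Hipk2 log2 fold change was 0.89 ± 0.23 (SE) for NYKD against ICH, -1.21 ± 0.20 for ICH against sham and -0.32 ± 0.27 for NYKD against sham. The last had the opposite sign to the value without the covariate. More astrocytes and more of these RNAs per cell cannot be told apart. A second measure is the median deviation of long transcripts (6000 bases or more) minus that of short ones (2000 or fewer). It ran from -0.344 to 0.332 in sham, -0.596 to 0.368 after ICH and 0.038 to 0.352 with NYKD (log2), and was above 0 in all 5 NYKD libraries. Sham replicate 4 and ICH replicate 1, with the highest value of their groups (0.332 and 0.368), also had the highest Hipk2 CPM of their groups, whereas NYKD replicate 4, highest in its group at 0.352, had the lowest Hipk2 CPM of the NYKD mice. With the GC and length offset, corrected CPM of Hipk2 was 149 to 197 with NYKD and 27.4 to 128 after ICH. In sham it was 73.9 to 131. Means were 178 ± 20, 70.1 ± 36.3 and 97.9 ± 28.0 in that order (SD, n = 5 each). The log2 fold change under this offset was 1.35 against ICH and 0.87 against sham. Hipk2 was chosen on its NYKD and ICH counts, so its separation from ICH in the same libraries is a description only. The part of transcript length in its level was not tested. The third measure is the striatal marker sum given above, of which 5 of 8 members fell with NYKD against sham (median log2 fold change -2.16). After ICH the median was -1.04, with 0 of 8 called by edgeR and 0 of 8 at an unadjusted p under 0.05. With the mean of those markers as a covariate, Hipk2 was 1.67 higher with NYKD than after ICH and 1.11 higher than in sham (log2).

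**Figure D4:**
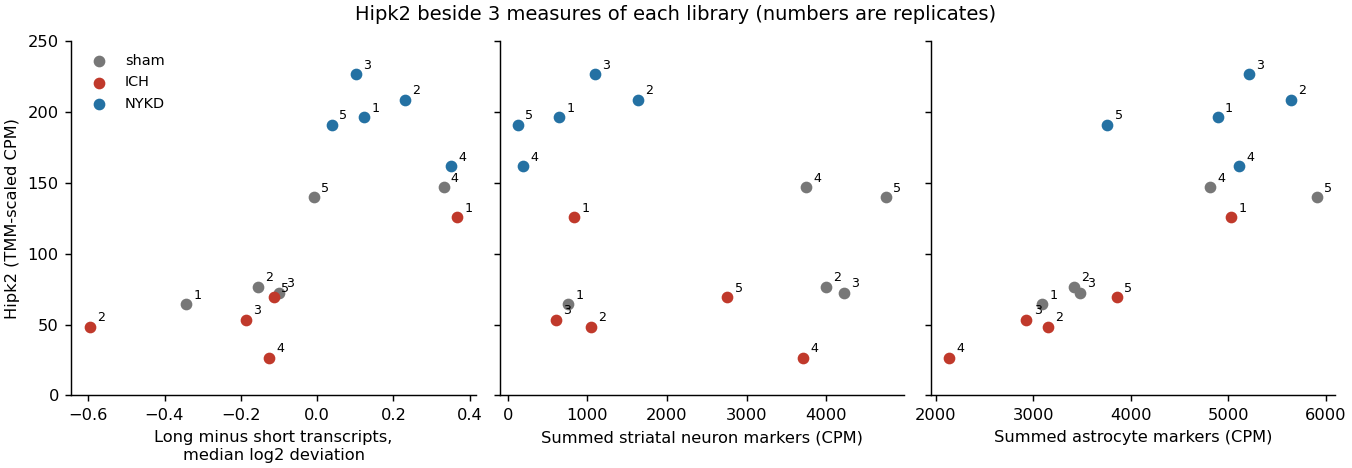
Hipk2 TMM-scaled CPM of each library against the long-minus-short transcript measure (left, log2), the summed CPM of 8 striatal neuron markers (middle) and the summed CPM of 5 astrocyte markers (right), with replicate numbers. NYKD libraries lie above 0 on the left axis and at 1640 CPM or below in the middle, and within sham and ICH the libraries with the highest astrocyte sums have the highest Hipk2 CPM.

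Other glial and vascular markers differed between the groups as well. All 5 microglia and macrophage markers rose after ICH and with NYKD against sham, their sum running from 341 to 489 CPM in sham, 720 to 1180 after ICH and 680 to 1440 with NYKD. Of the 5 astrocyte markers 1 rose after ICH and 3 with NYKD. Their summed CPM had a median of 3480 in sham, 3150 after ICH and 5110 with NYKD. Slc1a2, a glutamate transporter and the most counted of them, had a log2 fold change of -0.74 ± 0.30 after ICH (SE; adjusted p = 0.102, edgeR) and -0.05 ± 0.30 with NYKD against sham (adjusted p = 0.915). Endothelial markers rose in 3 of 5 after ICH and 4 of 5 with NYKD. Which cells carried the Hipk2 reads was not measured, and the part of the microglial and endothelial markers in its level was not tested.

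Genes whose levels were most like those of the kinases were taken by Pearson r of log2 CPM over the 15 libraries among 10778 genes. The points share library and depth, so no p is given. For Hipk2 these were Utrn (utrophin, r = 0.952), Soga1 (0.951), Slc4a4 (a sodium bicarbonate cotransporter, 0.947), Klf12 (a transcriptional repressor, 0.938) and Gtf3c4 (0.937). By deviations from the group means they were Ston2 (an endocytic adaptor, 0.970), Zfp652 (0.946), Nbas (0.942), Arsb (a lysosomal sulfatase, 0.937) and Tnr (tenascin-R of the extracellular matrix, 0.936). Longest transcripts of these 10 genes ran from 4038 to 12382 bases, all above the median of 3134. With the GC and length offset r fell by over 0.1 for Utrn (to 0.843), Slc4a4 (0.797), Zfp652 (0.679) and Nbas (0.788).

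For Hipk1 the most similar genes were Cgnl1 (a junction protein, r = 0.890), Serinc3 (0.888), Ntn4 (a netrin, 0.887), Wwc2 (0.885) and Sgms1 (sphingomyelin synthase, 0.884). By deviations they were Serinc3 (0.887), Crb2 (0.876), Klhl24 (0.868), Slco1c1 (a thyroid hormone transporter, 0.847) and Trp53inp1 (a p53-responsive stress protein, 0.844). All these values fell by over 0.1 with the offset, Ntn4 to 0.191. Hipk3 was most like Alg10b (0.943), Ccny (a cyclin, 0.938), Tgfbr3 (a TGF-beta coreceptor, 0.922), Rab22a (0.919) and Ddx6 (an RNA helicase, 0.913). Ccny, Rab22a, Alg10b and Ddx6 also led by deviations (0.942, 0.934, 0.929 and 0.926), followed by Slc30a4, a zinc transporter (0.922). With the offset r fell by over 0.1 over all libraries for Tgfbr3 (to 0.801), Rab22a (0.814) and Ddx6 (0.797), and by deviations for Rab22a (0.824).

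Hipk4, the family member with a role in mouse sperm formation, was the only called gene of the 7 listed DYRK-family kinases other than the members. Over all tested genes 17.0% were called after ICH and 23.4% with NYKD against sham. Its CPM was 38.3, 102.0, 99.1, 149.4 and 106.5 in sham replicates 1 to 5, 36.9, 40.3, 28.1, 51.2 and 43.1 after ICH, and 40.5, 42.3, 60.7, 27.7 and 23.4 with NYKD. Sham replicate 1 lay among the ICH and NYKD mice and the other sham mice above all of them. Hipk4 fell by 1.31 ± 0.31 after ICH (log2, SE; adjusted p = 0.00748, edgeR) and by 1.35 ± 0.31 with NYKD against sham (adjusted p = 0.00476), and stayed called without each single library. With the striatal marker covariate it was -0.84 after ICH (adjusted p = 0.0110) and -0.36 with NYKD (adjusted p = 0.458). With the astrocyte marker covariate the NYKD value was -1.33 (adjusted p = 0.142). Within groups the striatal sums largely moved with Hipk4, sham replicate 1 included. Between groups they did not always: ICH replicate 4 (sum 3710 CPM) had Hipk4 at 51.2 CPM, and sham replicate 4 (sum 3750 CPM) had 149.4. Beyond the covariate fit, the part of the sums was not tested. Dyrk4 and Prpf4b were not called. Prpf4b was called lower in NYKD against ICH with the GC and length offset (-0.65, adjusted p = 0.0374) and in NYKD against sham without sham replicate 5 (-0.37, adjusted p = 0.0477).

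Some genes of the 6 lists around the HIPK kinases differed from sham in the untreated and in the treated mice. The lists hold the DYRK-family kinases, HIPK turnover, damage signalling, transcription partners, p53 targets, and FAS and JNK signalling. Of their 76 distinct genes 75 were tested, and 21 (28.0%) were called after ICH and 25 (33.3%) with NYKD against sham, against 17.0% and 23.4% of all tested genes. Those comparisons share the sham libraries. The lists were chosen with earlier results of these data known, so their higher share is not read as a response of these pathways. A list count near the share of all genes is not read as a result about that list either. Over all genes 12.4% rose and 4.58% fell after ICH, and 15.3% rose and 8.08% fell with NYKD against sham. In NYKD against ICH 1 of 75 was called (1.33%), with 14 at an unadjusted p under 0.05; over all genes 3.46% were called, 1.19% higher and 2.27% lower. The listed count was 10 without ICH replicate 1, when 1520 of all genes were called, 8 with DESeq2, and 0 on omission of any 1 of the other ICH and NYKD libraries. Median log2 fold changes over the listed genes were 0.15, 0.13 and 0.05, beside 0.05, -0.02 and -0.01 over all genes.

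Among 13 genes that modify or turn over HIPK proteins, 4 rose after ICH, where 17.0% of all tested genes were called. With NYKD against sham 3 rose, where 23.4% of all tested genes were called. Sp100, a nuclear body protein, rose by 1.42 ± 0.31 after ICH (log2, SE; adjusted p = 0.00496, edgeR) and 1.37 ± 0.31 with NYKD (adjusted p = 0.00460). Senp1, a SUMO protease, rose by 0.56 ± 0.13 (adjusted p = 0.00609) and 0.52 ± 0.13 (adjusted p = 0.00741). With the striatal marker covariate the NYKD calls of Sp100 (adjusted p = 0.122) and Senp1 (0.286) were lost, as they were with the astrocyte one (0.177 and 0.290). Mdm2, a ubiquitin ligase for p53 and for HIPK2 in human cells, rose by 0.54 ± 0.12 after ICH (adjusted p = 0.00494). Its value with NYKD against sham was 0.13 ± 0.12 (adjusted p = 0.467). In NYKD against ICH Mdm2 was -0.41 ± 0.12 and not called (adjusted p = 0.0594, edgeR). That adjusted p was 0.0452 with library totals and ran from 0.0325 to 0.133 on omission of single libraries. The list medians were 0.09 and -0.14.

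Of 9 damage-signalling genes, 4 rose and 1 fell after ICH, and 5 rose and 1 fell with NYKD (medians 0.44 and 0.59). The shares called over all tested genes were 17.0% and 23.4%. Chek2, a checkpoint kinase, rose by 1.501 ± 0.36 after ICH (adjusted p = 0.00846, edgeR) and by 1.80 ± 0.36 with NYKD (adjusted p = 0.00190). The NYKD call was lost with the striatal (0.0542) and the astrocyte covariate (0.379). Its relative Chek1 rose by 1.38 ± 0.31 after ICH (adjusted p = 0.00513) and had a value of 0.83 ± 0.30 with NYKD (adjusted p = 0.0577). The NYKD value was called with the GC and length offset (0.0398), DESeq2 (0.0380), the fit of 2 groups (0.0359) and without NYKD replicate 1 (0.0461). In NYKD against ICH Chek1 was -0.55 ± 0.30 and not called (adjusted p = 0.283, edgeR). Zyx, which encodes zyxin, rose by 0.67 ± 0.18 after ICH (adjusted p = 0.0165) but lost its call without sham replicate 3 or 5 or ICH replicate 4 (0.0513 to 0.0574), and rose by 0.96 ± 0.18 with NYKD (adjusted p = 0.000977). The 5 called after ICH became 3 without sham replicate 3 or 5 or ICH replicate 3 or 4, and the 6 called with NYKD became 3 without sham replicate 3 or 5.

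Of 27 tested transcription partners and substrates, 3 rose and 1 fell after ICH (median 0.06), where 17.0% of all tested genes were called. With NYKD against sham 8 rose and 1 fell (median 0.12), where 23.4% of all tested genes were called. Runx1, a transcription factor of blood cells and microglia, rose by 1.82 ± 0.30 after ICH (adjusted p = 0.000592, edgeR) and 2.13 ± 0.30 with NYKD (adjusted p = 0.000101). Rbpj, the Notch pathway's DNA-binding protein, rose by 0.75 ± 0.16 (adjusted p = 0.00469) and 1.05 ± 0.16 (adjusted p = 0.000262). Zbtb4, a methyl-DNA binding repressor that HIPK2 phosphorylates in human cells, was the 1 listed gene called in NYKD against ICH. Its mean CPM was 147 ± 15.1 in sham, 94.7 ± 17.5 after ICH and 140 ± 14.1 with NYKD (SD, n = 5 each). It fell by 0.63 ± 0.14 after ICH against sham (adjusted p = 0.00439) and was 0.57 ± 0.14 higher with NYKD than after ICH (adjusted p = 0.0379). That second call was lost on omission of any 1 of ICH replicates 2 to 5 or NYKD replicates 1 to 5 (adjusted p 0.0559 to 0.0953) and with the GC and length offset, where the value was 0.29 (adjusted p = 0.130).

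Of 14 p53 target genes, 5 rose and 1 fell after ICH (median 0.41), where 17.0% of all tested genes were called. With NYKD against sham 3 rose (median 0.13), where 23.4% of all tested genes were called. Fas, the death receptor, rose by 1.81 ± 0.31 after ICH (adjusted p = 0.000940, edgeR) and by 1.23 without ICH replicate 4. Its value with NYKD was 0.77 ± 0.31 (adjusted p = 0.0801), called in the fit of 2 groups (0.00852) and with the astrocyte covariate (1.89, adjusted p = 0.000320). In NYKD against ICH Fas was -1.04 ± 0.30 and not called (adjusted p = 0.0632, edgeR), and -0.54 without ICH replicate 4. On omission of single libraries that adjusted p ran from 0.0282 to 0.142. Pmaip1, a pro-apoptotic gene, rose by 1.23 ± 0.33 after ICH (adjusted p = 0.0167) and 1.07 ± 0.33 with NYKD (adjusted p = 0.0273), and lost the first call without sham replicate 5 or ICH replicate 4 and the second on omission of any 1 of sham replicates 3 to 5 or NYKD replicate 2 or 4. The second was also lost with the striatal covariate (0.220). The 6 called after ICH became 3 without sham replicate 5 or ICH replicate 4, and the 3 called with NYKD became 1 without sham replicate 3 or 4 or NYKD replicate 2.

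Of 8 FAS and JNK signalling genes, 3 rose after ICH (median -0.19), where 17.0% of all tested genes were called. RLE factors, DESeq2 or the GC and length offset gave 3 higher and 2 lower after ICH. With NYKD against sham 2 rose and 1 fell (median -0.09), where 23.4% of all tested genes were called. Jun rose by 0.93 ± 0.15 after ICH (adjusted p = 0.000673, edgeR) and 1.14 ± 0.15 with NYKD (adjusted p = 6.80e-05). Fadd, the adaptor of the death receptor, rose by 0.86 ± 0.25 after ICH (adjusted p = 0.0270), a call lost on omission of any 1 of sham replicates 2 to 5 or ICH replicate 2 or 3 (up to 0.0806), and by 1.08 ± 0.25 with NYKD (adjusted p = 0.00541). The NYKD call of Fadd was lost with the striatal (0.174) and the astrocyte covariate (0.318). With the striatal marker covariate, members called in NYKD against sham fell to 0 in the DYRK-family list, 1 in turnover, 1 in damage signalling, 4 in partners, 0 in p53 targets and 1 in FAS and JNK signalling, and with the astrocyte covariate 9 of the distinct listed genes were called in place of 25. Microglial markers rose in the same mice, and their part in these lists was not tested.

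**Figure D5:**
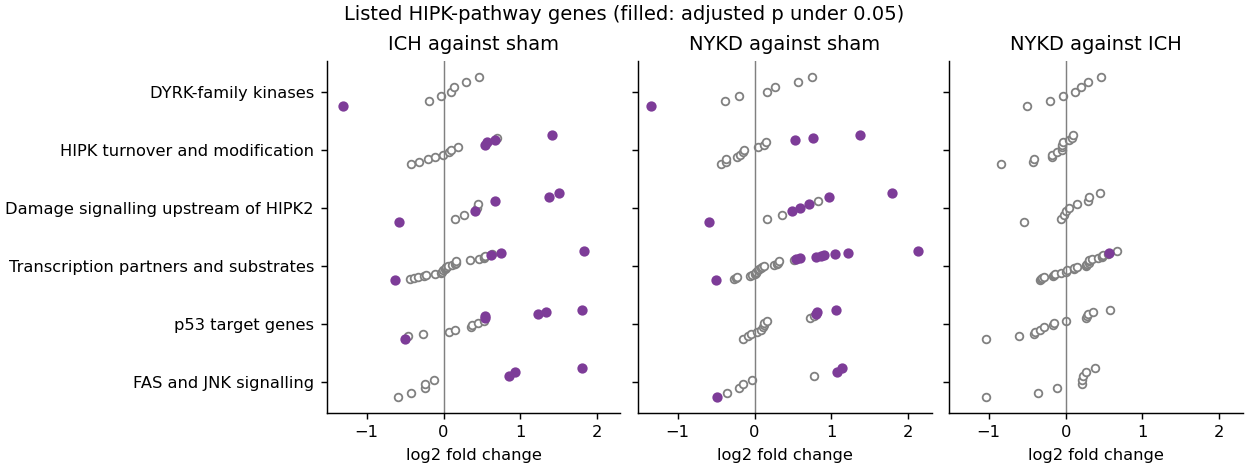
Log2 fold change of each tested gene of the 6 pathway lists in the 3 comparisons, filled where the adjusted p was under 0.05. In NYKD against ICH 1 point, Zbtb4 at 0.57, is filled.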

How the data were processed

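The authors deposited 1 table of raw counts per Ensembl gene, with a column per library, unnormalised. Tools named, per the submitters' processing notes, are HISAT2 2.0.5 and edgeR 3.22.5, with genome build mm10, but what each was used for is not; which program counted reads, on which annotation and strand setting, is not given in the sources used here. Per the labels' protocols, poly-A RNA was reverse transcribed with random hexamers. Groups came from the sample titles, and 26 empty columns were left out.

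Counts were filtered with filterByExpr, scaled by TMM and fitted in 1 edgeR 4.0.16 quasi-likelihood model (robust, R 4.3.3) over all 15 libraries, with Benjamini-Hochberg adjustment over 18052 genes and a threshold of 0.05. SE was approximated by dividing the size of the log2 change by the square root of F. Log2 CPM used a prior count of 2. Labels do not say that mice came from separate litters, so p-values measure the spread between these mice. Alternatives were RLE factors, library totals, no filter, DESeq2 1.42.0, limma-voom 3.58.1, fits of 2 groups, a replicate block, a GC and length offset (spline, 5 degrees of freedom), and omission of each library. A striatal and an astrocyte marker covariate, and the alternatives for list genes and correlations, were added after seeing the data.

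Same-number libraries correlated in their deviations with r from -0.330 to 0.233, so replicate numbers were not taken as pairs. Members, lists and tests were chosen with earlier results of these data known. Genes named were the members, per member the 5 most similar genes by each of 2 correlations (mean of at least 10 CPM), and per list the 3 with the smallest p in ICH against sham plus any called in NYKD against ICH. Promoter sequences are from RefSeq (GRCm38.p6).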

Additional observations from a re-analysis of the deposited data

Results flagged for a closer look

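Of 60 groups of 5 mice checked for a mouse far from the others, 7 held one, and chance gives about 1 in 20. Sham replicate 5 was high for Hipk1 (233 CPM) and Hipk3 (214 CPM) and low for Prpf4b (70.1 CPM). ICH replicate 3 was high for Sp100 (26.7 CPM), and ICH replicate 4 was high for Fas (34.5 CPM). Sham replicate 3 was low for Rbpj (25.5 CPM), and sham replicate 1 was high for Jun (65.4 CPM).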

How the results depend on the processing

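Hipk2 kept its sign in all 3 comparisons under every alternative run but the astrocyte marker covariate, which gave -0.32 in NYKD against sham and 0.89 in NYKD against ICH. Hipk1 in NYKD against sham ran from 0.26 to 0.35 on omission of each library and passed the threshold without sham replicate 5; it also passed with library totals (0.32). In NYKD against ICH, Hipk1 was -0.04 with the GC and length offset; the cause was not tested. Hipk2 ran from 1.39 to 1.995 in NYKD against ICH over omission of each library and from 0.89 to 1.78 over the other settings. The number of genes called in NYKD against ICH (625 by edgeR) depended on the setting: 1833 with DESeq2, 387 with limma-voom, 0 with the replicate block (3602 at an unadjusted p under 0.05) and 0 with the striatal (3297) and astrocyte marker covariates (1567). It ran from 0 to 1520 on omission of each library: 0 without ICH replicate 5 or NYKD replicate 1, 3 or 5, 1 without ICH replicate 4, 7 without NYKD replicate 4, 288 without NYKD replicate 2, 324 and 389 without ICH replicates 3 and 2, and 1520 without ICH replicate 1. The covariates left 1404 and 1094 genes in NYKD against sham (4225 without them). With library totals 117 of 581 called genes were higher in NYKD against ICH, against 215 of 625 with TMM. Under the replicate block 2255 genes were called after ICH and 3278 with NYKD against sham, and of the named genes Zbtb4 in NYKD against ICH (adjusted p = 0.0831) and Fadd after ICH (0.0711) lost their calls; members called after ICH fell from 5 to 3 in the damage list and from 6 to 3 among p53 targets. Libraries correlated best with their own number in 2, 1 and 0 of 5 pairs across ICH and sham, NYKD and sham, and NYKD and ICH. At 5 mice per group, intervals of the Hipk1 and Hipk3 changes with NYKD against sham reach up to 0.56 and 0.63.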
